A study of Mus musculus with 4 samples.

Results

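Aminoacyl-tRNA synthetases were followed as a family of 36 genes, 20 of which encode cytosolic enzymes and 16 mitochondrial ones (symbols ending in 2). They were taken by symbol, and all 36 were found among the 23284 gene symbols of the deposited tables, each with a single entry. All 36 also passed the filter on low values (a mean of at least 1 FPKM over the libraries), as did 10496 genes in all. FPKM is the number of sequenced fragments per kilobase of transcript, scaled to the mapped fragments of the library, so levels can be compared between genes per length.

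Each synthetase joins 1 amino acid to its matching tRNAs, and the charged tRNA then brings that amino acid to the ribosome. Cytosolic enzymes supply translation of nuclear-encoded messages, and the mitochondrial enzymes, encoded in the nucleus and imported, supply translation of the few proteins made inside mitochondria. Uncharged tRNA is sensed by the kinase GCN2 (gene Eif2ak4), which phosphorylates the initiation factor eIF2 and so favours translation of the transcription factor ATF4. Many cytosolic synthetase genes are among the known targets of ATF4, and T cells are known to raise protein synthesis strongly after activation.

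The 4 libraries hold polyadenylated RNA of splenic CD4 T cells from BALB/c mice, an inbred strain, after Th1 culture in the presence of interleukin-12 (10 ng/ml) and interleukin-2 (15 ng/ml). Culture lasted 4 days by one label and 5 days by another. Cells were sorted into CCR7hiCD137lo and CCR7loCD137hi populations, with 2 libraries each, by CCR7, the chemokine receptor for homing to lymph nodes, and by CD137 (gene Tnfrsf9), a costimulatory receptor that appears on T cells after activation. No genetic change or drug is named for either population, so strain, culture and cytokines are shared and the sort gate is the stated difference. The labels do not say whether the libraries numbered 1 and 2 came from separate animals or cultures. What the p-values weigh is thus the spread between the 4 libraries, part or all of which may be technical.

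The sort marker Ccr7 stood at 93.4 and 118 FPKM in the CCR7hiCD137lo libraries and at 39.6 and 38.2 FPKM in the CCR7loCD137hi libraries. Tnfrsf9 stood at 0.961 and 6.25 FPKM against 158 and 184 FPKM. Even for these sorted genes limma, a linear model that shares spread between genes, gave adjusted p = 0.213 and 0.214 with Benjamini-Hochberg adjustment over all genes tested. It called 6 of 10496 genes at a threshold of 0.05, or 0.0572%, made up of 5 with higher levels in CCR7loCD137hi (0.0476%) and 1 with a lower level there (0.00953%). The CCR7hiCD137lo libraries held an estimated 20500000 (replicate 1) and 13000000 (replicate 2) fragments, and the CCR7loCD137hi libraries 11600000 (replicate 1) and 6290000 (replicate 2). The 5 markers of CD4 T cells found in the tables summed to 874 to 1130 FPKM in every library. The Treg markers Foxp3 and Ikzf2 summed to 1.06 and 0.580 FPKM in CCR7hiCD137lo but to 60.8 and 16.9 FPKM in CCR7loCD137hi replicates 1 and 2. For CD8 T and NK cells 5 marker genes summed to 3.29 and 6.55 FPKM against 23.0 and 10.3 FPKM, and Klrb1c and Ncr1 were listed at 0 in both CCR7hiCD137lo libraries. The 5 B cell markers summed to at most 0.151 FPKM in CCR7hiCD137lo and to 4.86 and 0.529 FPKM in CCR7loCD137hi, and the 6 myeloid markers to at most 0.571 FPKM in any library. The part of Treg and other cells in the synthetase values was not tested, and in bulk RNA fewer cells of a type and less RNA per cell cannot be told apart.

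Over the 36 synthetases, libraries with the same number lay closest. The median absolute log2 difference was 0.13 between the libraries numbered 1 and 0.14 between those numbered 2. Within the populations it was 0.15 for CCR7hiCD137lo and 0.22 for CCR7loCD137hi. Libraries with the same number also lay closest over all genes tested, so this is not particular to the synthetases. There the values were 0.177 and 0.185 between libraries numbered 1 and 2, and 0.190 and 0.239 within CCR7hiCD137lo and CCR7loCD137hi.

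A short sequence, TGATGNAA (the C/EBP-ATF response element, CARE, at which ATF4 is known to bind with a C/EBP partner), was searched on both strands of RefSeq promoter windows that run from 250 bases before to 50 bases after each gene's start (build GRCm38.p6, which is mm10). Windows were found for 27 of the 36 synthetases, 13 cytosolic and 14 mitochondrial. It was present in 5 of 13 cytosolic windows (Aars, Gars, Iars, Tars and Yars), in 0 of 14 mitochondrial windows, and in 4.51% of all 27025 gene windows. One match in each of these 5 genes is printed 5′ to 3′ on the strand that carries the motif, with the motif in capitals and 9 bases on each side, because the 5 genes are compared with the other cytosolic members below.
Aars, chr8:111033842-111033867, minus strand: agagcgctcTGATGAAAagtgacccg
Gars, chr6:55037962-55037987, minus strand: cccggtgcaTGATGAAAtagcgcagc
Iars, chr13:49682128-49682153, minus strand: gtctggaggTGATGCAAtactgacag
Tars, chr15:11399657-11399682, plus strand: ctaaccagcTGATGCAAcgggactcc
Yars, chr4:129189897-129189922, plus strand: gagctcagcTGATGCAAcccgacggg

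With the first transcribed base of RefSeq counted as 1 and the base before it as -1, the printed motif lay upstream at -30 to -23 in Gars and at -15 to -8 in Tars. In the printed match it lay just inside the transcribed sequence at 10 to 17 in Aars, at 8 to 15 in Iars and at 4 to 11 in Yars. The printed matches read TGATGCAA in Iars, Tars and Yars and TGATGAAA in Aars and Gars. The deposited tables start Aars at chr8:111033967-111056870, downstream of this match, and start Yars at chr4:129189795-129219607, upstream of its match, so the position relative to the start depends on the annotation for these 2 genes. The 130 bases before the start are shown for Gars and Tars, whose printed match lies upstream, on the strand of the gene, where the motif reads as its reverse complement in capitals.
Gars, chr6:55037871-55038000, plus strand: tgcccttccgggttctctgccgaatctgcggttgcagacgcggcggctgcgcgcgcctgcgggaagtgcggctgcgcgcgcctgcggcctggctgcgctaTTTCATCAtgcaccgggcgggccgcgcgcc
Tars, chr15:11399659-11399788, minus strand: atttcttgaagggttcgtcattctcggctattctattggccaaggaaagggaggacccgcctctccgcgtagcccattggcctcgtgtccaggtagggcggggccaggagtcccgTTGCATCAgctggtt

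Values for 3 other short motifs, searched in the same windows on both strands, are given for comparison. The E-box CACGTG, a site of MYC and related factors, was found in 4 of 13 cytosolic windows (Aars, Farsb, Iars and Tars) and 1 of 14 mitochondrial windows (Ears2), against 8.09% of all windows. CGGAAG, the core of ETS factor sites, was found in 6 of 13 and 8 of 14 windows, against 18.8%. CCAAT was found in 7 of 13 and 6 of 14, against 41.1%. A match is a description of the letters and does not show that a factor binds there.

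Cytosolic synthetases were expressed several times more strongly than mitochondrial ones. The mean over the 4 libraries had a median of 47.8 FPKM over the 20 cytosolic genes, from 20.8 for Cars to 97.1 for Kars. Over the 16 mitochondrial genes the median was 8.27 FPKM, from 2.59 for Wars2 to 46.5 for Lars2. Kars (chr8:111993440-112011305), the lysine enzyme, serves both compartments from 1 gene, and stood at 101.6 and 90.6 FPKM in CCR7hiCD137lo against 103.5 and 92.9 FPKM in CCR7loCD137hi. The groups overlapped, and its log2 fold change of FPKM + 1, given throughout as CCR7loCD137hi minus CCR7hiCD137lo, was 0.03 with a standard error (SE) of 0.13. Vars (chr17:35000907-35016329), the valine enzyme, stood at 77.1 and 80.2 FPKM against 78.6 and 86.4 FPKM. That overlap also holds for most members of the mitochondrial family, as the plot of levels by library shows.

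**Figure D1:**
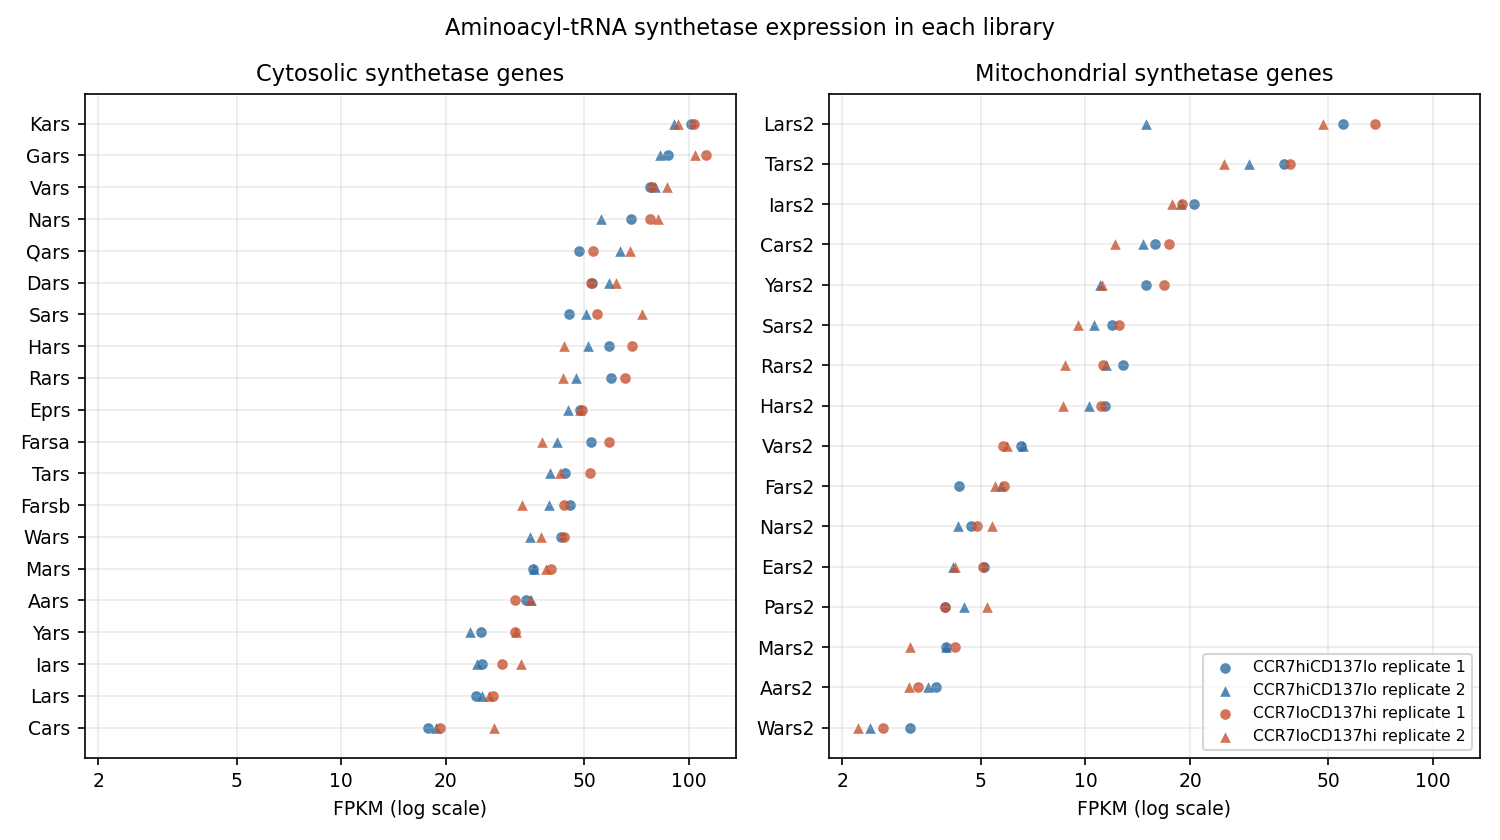
FPKM of each synthetase gene on a log axis, with 1 point per library (circles for replicate 1, triangles for replicate 2, blue for CCR7hiCD137lo and red for CCR7loCD137hi), genes ordered by mean level. Both red points lie to the right of both blue points for 9 cytosolic genes and 1 mitochondrial gene, and CCR7hiCD137lo replicate 2 of Lars2 lies apart at 14.9 FPKM.

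Between the populations, limma called 0 of the 36 synthetases. At an unadjusted p under 0.05 it gave 2 (Gars and Yars, both higher in CCR7loCD137hi), where 8.13% of all genes tested had such a p. Of the 20 cytosolic genes, 17 had a fitted difference above 0, against 47.9% of all genes, and their median log2 fold change was 0.09, with a range from -0.15 to 0.40. Over all genes the median was -0.01. In 9 of the 20, both CCR7loCD137hi libraries stood above both CCR7hiCD137lo libraries, against 16.6% of all genes, and 0 of the 20 stood below in both, against 21.5%. When FPKM were rescaled so that genes other than short RNA genes summed to the same total, 13 of 20 had a difference above 0, 7 stood above in both libraries and 1 below, and the median was 0.03. That rescaling moved all genes down, to a median of -0.06 with 39.3% above 0, 13.0% above in both libraries and 28.1% below in both. The summed level of the cytosolic genes was 994 and 945 FPKM in CCR7hiCD137lo and 1092 and 1047 FPKM in CCR7loCD137hi, so both libraries of the latter summed higher, by a ratio of means of 1.10. The cytosolic median depended on single libraries, at 0.15 without CCR7hiCD137lo replicate 1 and 0.16 without CCR7loCD137hi replicate 2, where the medians of all genes were -0.05 and -0.02.

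**Figure D2:**
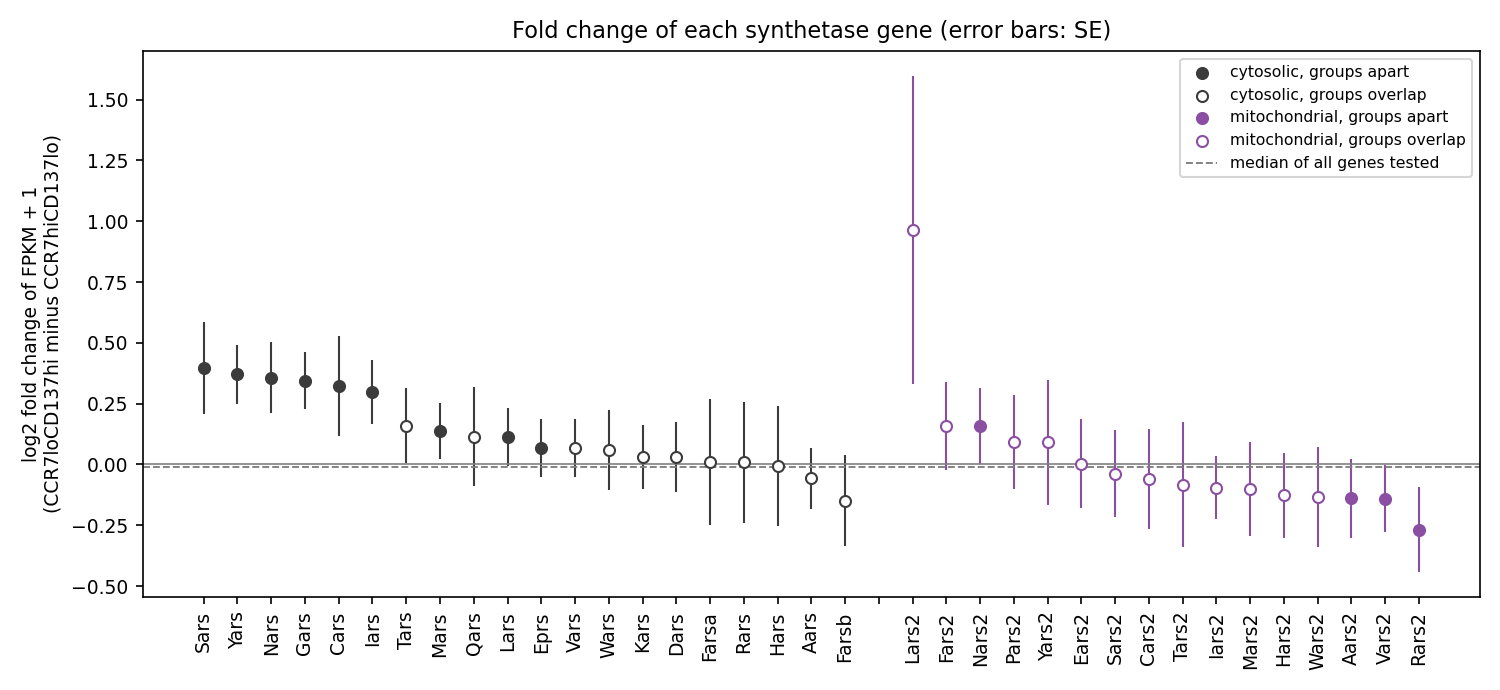
Log2 fold change of FPKM + 1 for each synthetase gene, CCR7loCD137hi minus CCR7hiCD137lo, with SE as bars; filled points mark genes whose libraries do not overlap between the populations and the dashed line the median of all genes tested. Sars has the highest cytosolic value at 0.40, and Lars2 the highest mitochondrial value, 0.96, with the widest bar.

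The 9 cytosolic genes whose libraries did not overlap load glycine, tyrosine, asparagine, serine, cysteine, isoleucine, methionine, leucine and, for Eprs, glutamate and proline. Gars (chr6:55038001-55079504), which charges glycine tRNAs in both compartments from 1 gene, stood at 87.0 and 82.7 FPKM in CCR7hiCD137lo against 112.0 and 104.1 FPKM in CCR7loCD137hi. Its means were 84.8 ± 3.04 and 108 ± 5.62 FPKM (SD, n = 2), a ratio of 1.27. The log2 fold change was 0.34 with a 95% confidence interval from 0.04 to 0.65, and limma's adjusted p was 0.588. Yars, the tyrosine enzyme, stood at 25.3 and 23.4 FPKM against 31.6 and 31.9 FPKM. Both CCR7loCD137hi values lie close together and above both others, with means of 24.4 ± 1.32 and 31.7 ± 0.220 FPKM (SD, n = 2). Its log2 fold change was 0.37, with an interval from 0.05 to 0.69 and a limma adjusted p of 0.576, the lowest of the family.

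Sars (chr3:108424864-108445259), the serine enzyme, stood at 45.2 and 50.5 FPKM in CCR7hiCD137lo against 54.3 and 73.6 FPKM in CCR7loCD137hi. The groups do not overlap, but CCR7loCD137hi replicate 2 accounts for much of the mean difference, and the log2 fold change was 0.40 with an SE of 0.19 (adjusted p = 0.687 in limma). Without that library it was lower, at 0.18. Nars, the asparagine enzyme on chromosome 18, stood at 68.1 and 56.0 FPKM against 77.3 and 81.4 FPKM. Its log2 fold change was 0.36 with an SE of 0.15 (adjusted p = 0.640 in limma). Cars (chr7:143557230-143600090), the cysteine enzyme and the least expressed cytosolic member, stood at 17.7 and 18.7 FPKM against 19.2 and 27.6 FPKM. Here only CCR7loCD137hi replicate 2 stands well clear of the others, and the log2 fold change of 0.32 (SE 0.21, adjusted p = 0.758 in limma) was 0.07 without it.

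Iars (chr13:49682130-49734267), the isoleucine enzyme, stood at 25.4 and 24.6 FPKM in CCR7hiCD137lo against 29.1 and 32.9 FPKM in CCR7loCD137hi, which is 0.30 on the log2 scale (SE 0.13, limma adjusted p = 0.661). A processed pseudogene, Gm4849, shares 1656 nt with its transcript at 96.0% identity and was not analysed here, so how reads were split between them is uncertain. Mars (chr10:127296221-127311786), which charges methionine tRNAs including the initiator, stood at 35.7 and 35.8 FPKM against 40.1 and 38.7 FPKM (log2 fold change 0.14). Lars, the leucine enzyme and a known leucine sensor of the growth kinase mTORC1, stood at 24.4 and 25.4 FPKM against 27.3 and 26.6 FPKM (0.11). Eprs (chr1:185363095-185428355), a fused enzyme for glutamate and proline, stood at 48.5 and 44.8 FPKM against 49.1 and 48.7 FPKM (0.07). In these 3 genes the groups do not overlap, yet the gap between them is at most a few FPKM.

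The other 11 cytosolic genes overlapped between the populations, with log2 fold changes from -0.15 (Farsb) to 0.16 (Tars). Tars, the threonine enzyme, stood at 44.1 and 40.0 FPKM against 52.0 and 42.5 FPKM. Aars, the alanine enzyme, stood at 34.0 and 35.0 FPKM against 31.5 and 34.8 FPKM, a log2 fold change of -0.06 with an interval from -0.39 to 0.27. It shares 1326 exonic nt with Exosc6 on the same strand, a gene at 22.8 FPKM, so reads of that stretch can belong to either gene. Farsa and Farsb, the alpha and beta subunits of the phenylalanine enzyme, which work as a tetramer, were split by library number. Farsa stood at 52.4 and 41.9 FPKM against 59.0 and 37.8 FPKM. Farsb stood at 45.5 and 39.5 FPKM against 43.8 and 33.1 FPKM. In both subunits the library numbered 2 was the lower one in each population, and the log2 fold changes were 0.01 (SE 0.26) and -0.15 (SE 0.19).

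Hars and Rars, the histidine and arginine enzymes, showed the same layout. Hars stood at 58.9 and 51.4 FPKM in CCR7hiCD137lo against 68.5 and 43.8 FPKM in CCR7loCD137hi. Rars stood at 59.6 and 47.4 FPKM against 65.7 and 43.5 FPKM. In both genes the highest and the lowest library belonged to CCR7loCD137hi, and the fitted differences were -0.01 and 0.01. For Dars and Qars, the aspartate and glutamine enzymes, the libraries numbered 2 were the higher ones in each population. Dars stood at 52.8 and 58.7 FPKM against 52.4 and 61.8 FPKM. Qars stood at 48.4 and 63.3 FPKM against 53.1 and 67.7 FPKM.

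Wars, the tryptophan enzyme, is known to be induced by interferon gamma, the cytokine that defines Th1 cells. It stood at 43.0 and 35.0 FPKM in CCR7hiCD137lo against 43.6 and 37.6 FPKM in CCR7loCD137hi, and its log2 fold change was 0.06, with an interval from -0.38 to 0.50. In a list of 15 other interferon-gamma response genes, 1 had a fitted difference above 0, against 47.9% of all genes, and the median was -0.24. In 10 both CCR7loCD137hi libraries stood below both others, against 21.5% of all genes. limma called 0 of the 15, and 2 had an unadjusted p under 0.05, against 8.13% of all genes tested. The immunoproteasome gene Psmb8 stood at 532 and 520 FPKM against 496 and 453 FPKM, and the GTPase gene Igtp at 351 and 388 FPKM against 318 and 286 FPKM. The difference between Wars and these genes was not tested.

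Of the cytosolic enzymes, 8 (Dars, Eprs, Iars, Kars, Lars, Mars, Qars and Rars) sit in the multisynthetase complex, an assembly held together by the scaffold proteins Aimp1, Aimp2 and Eef1e1. All 8 had a fitted difference above 0 in the fit as designed, against 47.9% of all genes, with a median of 0.09. In 4 of them both CCR7loCD137hi libraries stood above both others, against 16.6% of all genes. After rescaling without short RNA genes Dars, Kars and Rars stood at -0.03, -0.03 and -0.05, where the median of all genes was -0.06, and Rars was also just under 0 with quantile normalization. The 12 enzymes outside the complex had a median of 0.11, with 9 above 0 and 5 above in both libraries, against the same shares of all genes. Over all 20 cytosolic genes these counts were 17 and 9. Aimp1 stood at 56.5 and 51.7 FPKM against 58.3 and 66.7 FPKM, for a log2 difference of 0.20 (SE 0.13, limma adjusted p = 0.760). Eef1e1 stood at 43.6 and 35.3 FPKM against 52.7 and 35.6 FPKM, and Aimp2 had a log2 fold change of 0.06. By fold of the catalytic domain, the 9 class I enzymes had a median of 0.11 and the 10 class II enzymes a median of 0.03, which was -0.03 after rescaling without short RNA genes; Eprs holds a domain of each class.

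The cytosolic genes can also be grouped by what is known of their control. These lists were chosen with earlier results of the same libraries known, so a contrast between them is no independent evidence. Of 13 that are commonly listed as ATF4 dependent (Aars, Cars, Eprs, Gars, Iars, Lars, Mars, Nars, Sars, Tars, Vars, Wars and Yars), 12 had a fitted difference above 0, against 47.9% of all genes, with a median of 0.16. The 9 that did not overlap were all in this list, where 16.6% of all genes stood above in both CCR7loCD137hi libraries. Of the other 7 (Dars, Farsa, Farsb, Hars, Kars, Qars and Rars), 5 had a difference above 0, with a median of 0.01. Between the populations 0 of the 7 stood apart, against 16.6% above and 21.5% below over all genes. In these 7, both libraries numbered 2 stood below both numbered 1 in 5 genes and above in 2. For the 13 it was 2 below and 2 above, against 19.8% and 30.5% of all genes. A gene split by number in this way cannot stand apart between the populations. The part of library number in this contrast was not tested. Rescaling without short RNA genes left 12 of 13 above 0 in the first list, with a median of 0.10, and 1 of 7 in the second, with a median of -0.05, against 39.3% of all genes and their median of -0.06. The median of the second list ran from -0.28 without CCR7loCD137hi replicate 1 to 0.11 without CCR7loCD137hi replicate 2, and that of the first from 0.13 to 0.23 when any 1 library was left out. The 5 genes whose windows carry the CARE motif, shown above, had a median log2 fold change of 0.30, and the 8 cytosolic genes whose windows lack it had 0.05. Cars, Hars, Lars, Nars, Rars, Vars and Wars had no window and are in neither group. Their log2 fold changes ran from -0.01 for Hars to 0.32 for Cars and 0.36 for Nars, so these medians could shift with them. The same split gave 0.05 with and 0.11 without the E-box, 0.14 with and 0.05 without CCAAT, and 0.13 with and 0.07 without CGGAAG. Of the 5, Yars, Gars and Iars had 0.37, 0.34 and 0.30, Tars 0.16 and Aars -0.06. Sars had the highest cytosolic value, and its window holds no match.

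ATF4 itself and other genes that it is known to activate mostly had values above 0 as well. Atf4 stood at 112 and 121 FPKM in CCR7hiCD137lo against 171 and 190 FPKM in CCR7loCD137hi, which is 0.63 on the log2 scale (SE 0.12, adjusted p = 0.374 in limma). Psat1, an enzyme of serine synthesis, stood at 93.3 and 81.5 FPKM against 100.03 and 101.4 FPKM. Of 22 tested genes of this list, 19 had a fitted difference above 0, against 47.9% of all genes, and the median was 0.27. In both CCR7loCD137hi libraries 11 stood above and 1 below, against 16.6% and 21.5% of all genes. limma gave 5 an unadjusted p under 0.05, all higher, where 8.13% of all genes tested had such a p. limma called 0 of the 22, and under the 3 other scalings 18 to 20 had a difference above 0. Asns, asparagine synthetase, chosen after its values were seen, stood at 11.1 and 14.3 FPKM against 20.2 and 40.6 FPKM, with most of the difference in replicate 2. Among 6 genes of eIF2 kinases and phosphatase subunits, 3 stood above in both libraries and 1 below, against the same 16.6% and 21.5%. limma called 0 of the 6, with 2 at an unadjusted p under 0.05, against 8.13% of all genes tested. Ppp1r15a, a phosphatase subunit that reverses eIF2 phosphorylation, stood at 19.9 and 21.5 FPKM against 39.7 and 36.2 FPKM (limma adjusted p = 0.307). Ppp1r15b, another such subunit, had a log2 fold change of 0.08. Eif2ak4, which encodes GCN2 and is named for that role outside the rule for named genes, stood at 2.92 and 4.84 FPKM against 3.17 and 6.12 FPKM, with overlapping groups. These lists were chosen with earlier results of the same libraries known, so their direction is no independent evidence.

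**Figure D3:**
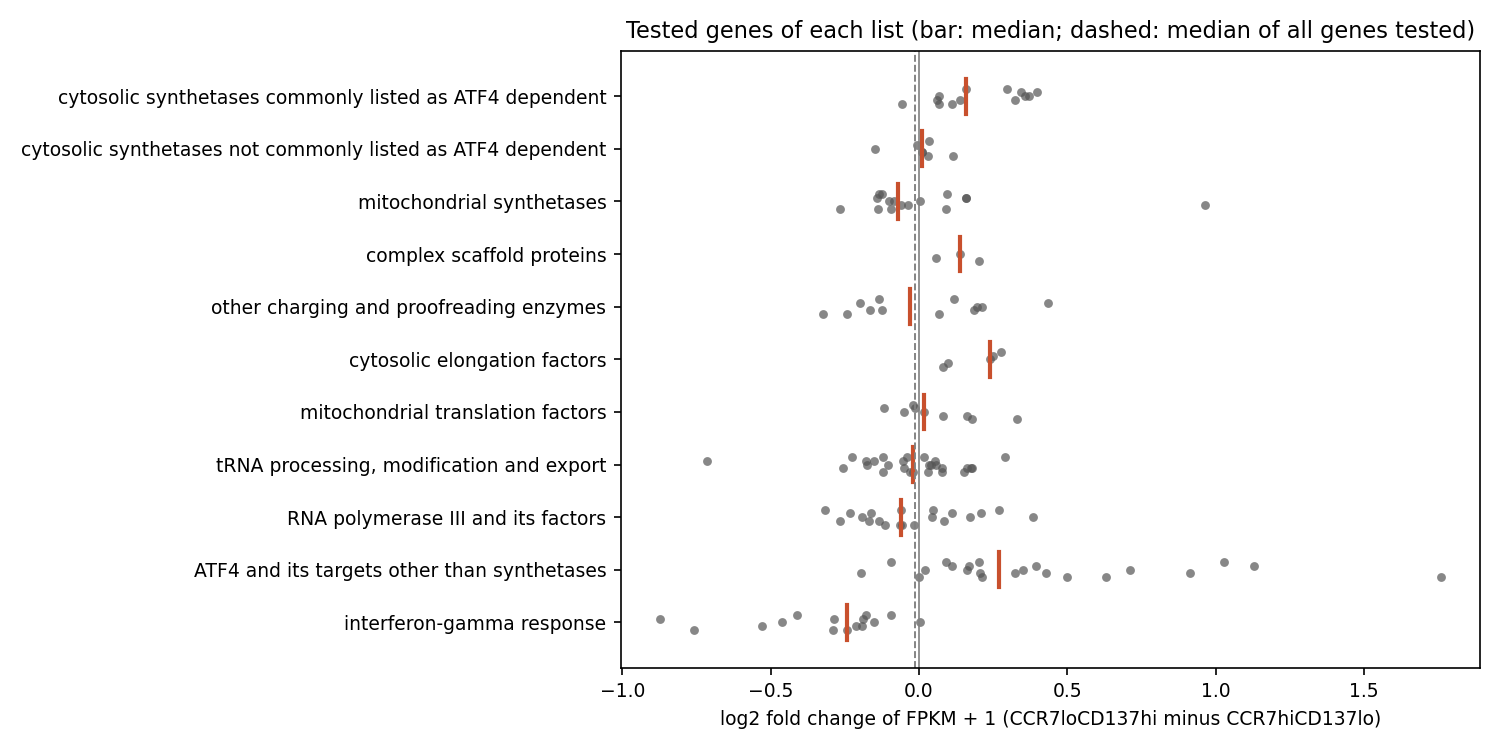
Log2 fold change of FPKM + 1 of every tested gene in each list, CCR7loCD137hi minus CCR7hiCD137lo, with 1 point per gene, a bar at the median of the list and a dashed line at the median of all genes tested. Synthetases listed as ATF4 dependent have a median of 0.16 and the other ATF4 targets 0.27, while mitochondrial synthetases have -0.07 and interferon-gamma response genes -0.24.

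The mitochondrial enzymes lay on both sides of 0. Of 16, 6 had a fitted difference above 0, against 47.9% of all genes, and the median was -0.07, against -0.01 over all genes. The median of the cytosolic genes was higher than the mitochondrial one by 0.16. limma called 0 of the 16 and 0 had an unadjusted p under 0.05, with a lowest adjusted p of 0.760. Without CCR7loCD137hi replicate 1 that gap between the medians was 0.28, and without CCR7loCD137hi replicate 2 it was 0.08, with a mitochondrial median of 0.08. Both CCR7loCD137hi libraries stood below both others in 3 genes and above in 1, against 21.5% and 16.6% of all genes. After rescaling without short RNA genes these counts were 4 and 0, against 28.1% and 13.0%, so the counts below lay near the share of all genes. Rars2 (chr4:34614958-34660167), for arginine, stood at 12.8 and 11.5 FPKM in CCR7hiCD137lo against 11.2 and 8.73 FPKM in CCR7loCD137hi, which is -0.27 on the log2 scale (SE 0.17, adjusted p = 0.760 in limma). Vars2 (chr17:35655635-35667592), for valine, stood at 6.54 and 6.61 FPKM against 5.80 and 5.94 FPKM (-0.14). Aars2 (chr17:45506841-45520843), for alanine, stood at 3.72 and 3.53 FPKM against 3.29 and 3.11 FPKM (-0.14). Nars2 (chr7:96951527-97064757), for asparagine, was the 1 gene above in both, at 4.68 and 4.29 FPKM against 4.87 and 5.37 FPKM (0.16). In these 4 genes the gap between the groups was less than 1 FPKM, and for Aars2, with an estimated 62 fragments in the library with fewest, counting error alone is 12.7% of the value.

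Tars2 (chr3:95739974-95754977), for threonine, was the second most expressed mitochondrial member, at 37.2 and 29.5 FPKM against 38.8 and 25.1 FPKM. The library numbered 2 was the lower one in both populations, and the log2 fold change was -0.08 with an interval from -0.76 to 0.60. Of the remaining 10 overlapping mitochondrial genes other than Lars2, log2 fold changes ran from -0.13 for Wars2 to 0.16 for Fars2. Iars2, for isoleucine, stood at 20.5 and 18.8 FPKM against 18.9 and 17.7 FPKM. Cars2, for cysteine, stood at 15.9 and 14.7 FPKM against 17.4 and 12.2 FPKM, with its highest and lowest library both in CCR7loCD137hi. Yars2, for tyrosine, stood at 14.9 and 11.0 FPKM against 16.8 and 11.2 FPKM, so the libraries numbered 2 were lower in both populations and the log2 fold change was 0.09. Fars2, for phenylalanine, stood at 4.33 and 5.70 FPKM against 5.84 and 5.50 FPKM, and only CCR7hiCD137lo replicate 1 lay well below the others. It shares exonic sequence on the opposite strand with Nrn1, a gene at 61.1 FPKM. Ears2, which charges glutamate and, by the mitochondrial route, the glutamine tRNA that is then converted by an amidotransferase, stood at 5.12 and 4.16 FPKM against 5.06 and 4.23 FPKM, a log2 fold change of 0.00. Iars2 shares 2034 exonic nt with Rab3gap2 on the opposite strand, or 22.9% of its exons, and whether the counting used the strand is not given in the sources used here.

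Lars2 (chr9:123366940-123462664), the mitochondrial leucine enzyme, stood apart from the family. It stood at 55.0 FPKM in CCR7hiCD137lo replicate 1, at 14.9 FPKM in CCR7hiCD137lo replicate 2, and at 68.2 and 48.1 FPKM in CCR7loCD137hi. The highest library was 4.56 times the lowest, where the next widest synthetase, Sars, had a ratio of 1.63, and the populations overlapped, with means of 35.0 ± 28.3 and 58.1 ± 14.1 FPKM (SD, n = 2). Its log2 fold change was 0.96 with an interval from -0.72 to 2.65 (limma adjusted p = 0.760). Without CCR7hiCD137lo replicate 2 it was 0.06, and without CCR7hiCD137lo replicate 1 it was 1.87. The entry for the ribosomal RNA precursor, Rn45s, stood at 254 and 100.1 FPKM in CCR7hiCD137lo against 233 and 199.7 FPKM in CCR7loCD137hi, so its lowest library was the same one. The longest coding transcript of Lars2 shared no stretch of at least 75 nt at 95% identity with another gene's transcript in GENCODE. Whether the transcripts searched hold the Rn45s sequence was not checked, so that search does not address it. A part of ribosomal RNA in the Lars2 value was not tested.

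**Figure D4:**
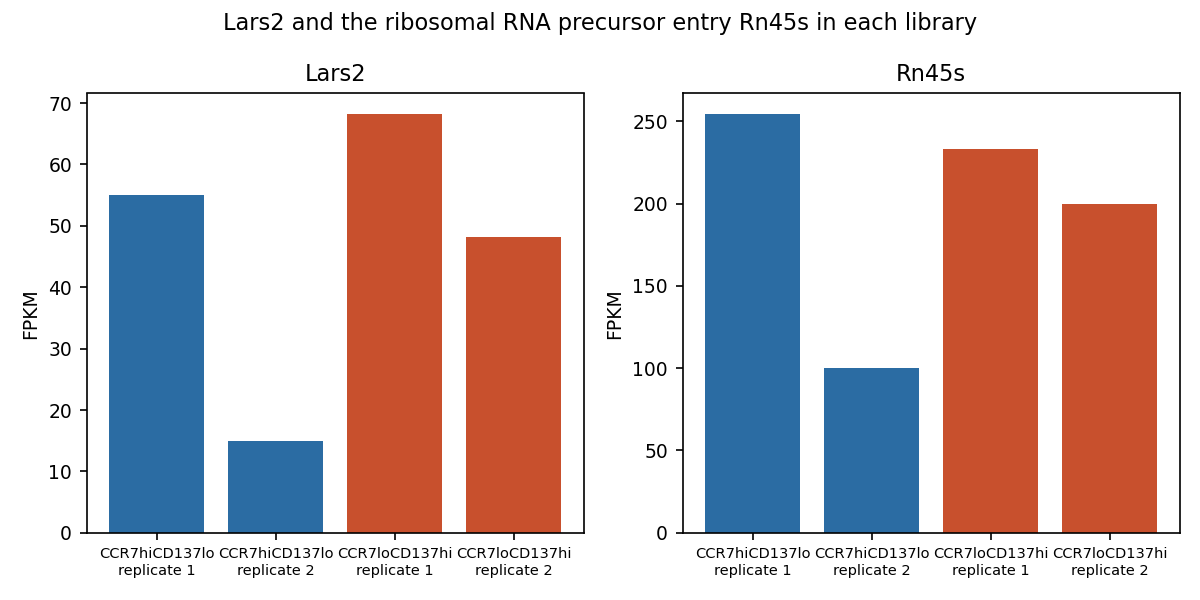
FPKM of Lars2 and of Rn45s in each library, with 1 bar per library, blue for CCR7hiCD137lo and red for CCR7loCD137hi. Both are lowest in CCR7hiCD137lo replicate 2, at 14.9 and 100.1 FPKM.

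The library number moved with many of these values. In 9 of 16 mitochondrial and 7 of 20 cytosolic genes both libraries numbered 2 stood below both numbered 1, against 19.8% of all genes, and 1 mitochondrial and 4 cytosolic genes stood above, against 30.5%. The median difference of number 2 minus number 1 was -0.23 log2 over the mitochondrial genes, -0.05 over the cytosolic genes and 0.06 over all genes. Within each population the library numbered 2 is also the shallower one, and the part of depth was not tested. Taken within numbers, the median difference between the populations over the cytosolic genes was 0.15 for the libraries numbered 1 and 0.10 for those numbered 2, and 14 of 20 genes lay above 0 in both while 2 lay below in both. Over the mitochondrial genes it was 0.02 and -0.11, with 3 of 16 above 0 in both and 6 below in both. Over all genes tested it was 0.01 and -0.04. The share of all genes above or below 0 in both was not counted, so these counts have no background to be set against. Yars lay at 0.31 and 0.43, Gars at 0.36 and 0.33, Iars at 0.19 and 0.40, and Lars2 at 0.31 and 1.62.

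**Figure D5:**
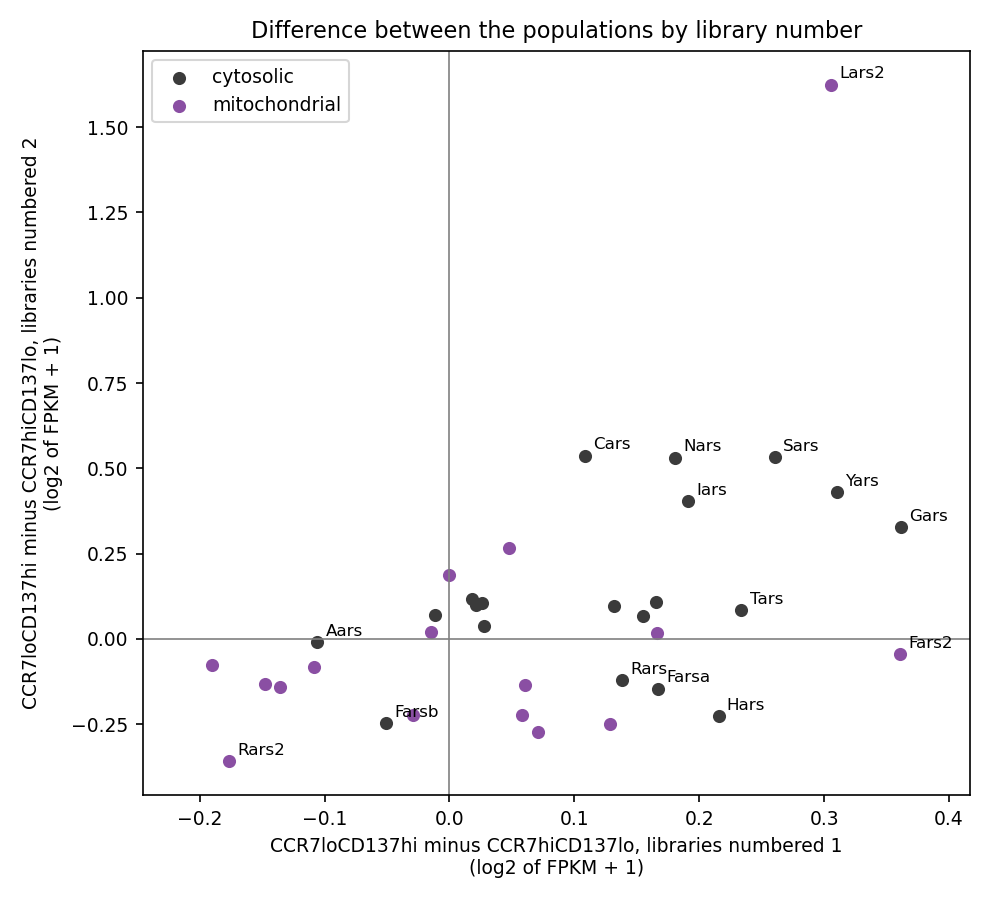
Difference in log2(FPKM + 1) between the populations for each synthetase gene, taken between the libraries numbered 1 (horizontal axis) and between those numbered 2 (vertical axis), grey for cytosolic and purple for mitochondrial genes. In the upper right quadrant, above 0 on both axes, lie 14 cytosolic and 3 mitochondrial genes, with Lars2 highest at 1.62 on the vertical axis.

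Depth limits what these values can resolve mainly for the mitochondrial enzymes. Fragments were estimated from FPKM, depth and the length of each gene's longest coding transcript in GENCODE. The library with fewest fragments held from 383 (Farsb) to 2141 (Vars) for cytosolic genes and from 49 (Ears2) to 715 (Lars2) for mitochondrial genes, for counting errors between 2.16% and 14.3% of a value. The length behind the deposited FPKM is not given, and where it is shorter the fragments are fewer and the counting error is larger. In a library a transcript of 1 kb with 3 fragments would stand between 0.146 and 0.477 FPKM, below every synthetase value. For the cytosolic genes that overlapped, the 95% intervals of the log2 fold change reached from -0.68 to 0.70 for Farsa and from -0.25 to 0.38 for Vars, so the difference seen for Yars, 0.37, lies within both. The upper limits of 0.27 for Aars and 0.34 for Farsb leave it out.

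Enzymes and factors next to tRNA charging gave values on either side of 0. Of 12 other charging and proofreading genes 6 had a fitted difference above 0, with a median of -0.03, and 3 stood above and 2 below in both CCR7loCD137hi libraries. Of all genes tested, 47.9% had a difference above 0, 16.6% stood above in both and 21.5% below in both, so these counts lay near those shares. Aarsd1, which clears wrong amino acids from alanine tRNA, stood at 44.0 and 37.8 FPKM against 41.8 and 32.9 FPKM. Dtd1, which removes D-amino acids from tRNA, stood at 15.2 and 14.8 FPKM against 13.3 and 10.4 FPKM, with no overlap (log2 fold change -0.33). All 5 cytosolic elongation factor genes, whose products carry charged tRNA to the ribosome and move it along, had a difference above 0, with a median of 0.24, and 1 did not overlap, but with quantile normalization 4 of 5 were above 0 and the median was 0.09. Eef2 stood at 937 and 1116 FPKM against 1113 and 1378 FPKM, for a log2 difference of 0.28 (SE 0.17, limma adjusted p = 0.742), and Eef1a1 had 0.08. Of 9 mitochondrial translation factors 5 had a difference above 0, with a median of 0.02 that was -0.04 after rescaling without short RNA genes. Tufm, the mitochondrial elongation factor that carries charged tRNA, stood at 41.6 and 40.8 FPKM against 58.4 and 46.4 FPKM, with no overlap, and limma's adjusted p was 0.687. Tsfm, its exchange factor, had a log2 fold change of 0.16 with overlapping groups. limma called 0 genes of these 3 lists, and 0 had an unadjusted p under 0.05.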

How the data were processed

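Polyadenylated RNA was measured in 4 libraries. The authors deposited FPKM values in a gene table for each library. The submitters' processing notes name mm10 with Cufflinks 2.0.2, TopHat 1.3.2 and Bowtie 0.12.8. The annotation, the strand setting and any scaling were not given in the sources used here. Where a symbol had several entries (240 of 23284) the one with the highest mean FPKM was kept.

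The synthetases, related lists and tests were chosen with earlier results of these data known. Any of the 36 members could be named; of each related list the 2 most expressed genes were named unless limma called others, and Aimp2, Asns, Eif2ak4 and Xpot were named outside this rule after their values were seen. Genes with a mean of at least 1 FPKM were tested on log2(FPKM + 1), which understates the change of low genes, with limma 3.58.1 in R 4.3.3 (variance trend, two-sided, Benjamini-Hochberg over all 10496 genes, threshold 0.05), after a check on simulated data. With 2 libraries in each population, the smallest two-sided p of an exact permutation test is 0.333. Alternatives were a pseudocount of 0.1, no filter or a mean of at least 5 FPKM, quantile normalization, median centring, rescaling without short RNA genes, no variance trend, a replicate block, summed entries and leaving out each library.

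Depth is not stated. Relative depth came from ratios of FPKM in low genes, which were whole-read ratios for 66.9% to 68.3% of genes, and absolute depth from 30 genes of a single exon under an assumed fragment length, so it is approximate and covers counting error only. Promoter windows are from RefSeq on GRCm38.p6, and some matches in them are not reported here. Exon overlaps used GENCODE, and shared transcript sequence was found with BLAST 2.17.0. Tables and plots used Python 3.11.15 with pandas 2.3.3, numpy 2.4.6 and matplotlib 3.10.9.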

Additional observations from a re-analysis of the deposited data

How the results depend on the processing

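With 2 libraries a population, limma called 0 of the 36 synthetases as designed and under all 13 alternatives, while the count over all genes went from 6 to 42 with the replicate block, to 17, 23, 12 and 30 without 1 library, to 1 without a filter, and to 2 with quantile normalization or without a variance trend. The labels give no pairing beyond the number, and with a block for it the lowest adjusted p of limma was 0.135 over the cytosolic and 0.230 over the mitochondrial genes; deviations from the group means correlated at 0.21 between libraries of the same number over all genes and at 0.54 over the 36 synthetases. The filter at 5 FPKM left 10 mitochondrial genes.

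The cytosolic median of 0.09 was 0.0327 after rescaling without short RNA genes and 0.0995 to 0.164 when 1 library was left out. The mitochondrial median ran from -0.176 to 0.0841, the latter without CCR7loCD137hi replicate 2, and their difference from 0.0797 to 0.279. Followed were all 20 cytosolic genes, the non-overlapping mitochondrial genes Aars2, Nars2, Rars2 and Vars2, and the most expressed ones, Lars2 and Tars2. Of these 26 synthetases, 15 kept their direction in every setting that tested them, with Aars2 and Nars2 not tested at the filter of 5 FPKM. A gene whose groups do not overlap cannot change direction when 1 library is left out, so those settings were no check on such genes. The other mitochondrial genes were not followed. Rescaling gave Dars -0.0277, Farsa -0.0467, Kars -0.0259 and Rars -0.0490, median centring gave Hars 0.00188, and quantile normalization gave Rars -0.00525. Without 1 library in turn, log2 fold changes ran from -0.126 to 0.0117 for Aars, -0.0872 to 0.147 for Dars, -0.30 to 0.33 for Farsa, -0.345 to 0.0485 for Farsb, -0.32 to 0.31 for Hars, -0.0497 to 0.114 for Kars, -0.0763 to 0.303 for Qars, -0.28 to 0.30 for Rars, -0.00118 to 0.134 for Vars, -0.0840 to 0.205 for Wars and -0.39 to 0.22 for Tars2. For a result left with 1 library in a population, that library is assumed to vary like the others. The cause of these moves was not tested.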

Other observations

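Genes that make and mature tRNA gave values on both sides of 0. Of 27 tested genes of tRNA processing, modification and export, 13 had a fitted difference above 0 between CCR7loCD137hi and CCR7hiCD137lo, near the 47.9% of all genes. In both CCR7loCD137hi libraries 2 stood above and 1 below, against 16.6% and 21.5% of all genes. Both libraries numbered 2 stood below both numbered 1 in 16 and above in 5, against 19.8% and 30.5%. Genes split by number in this way cannot stand apart between the populations. The median log2 fold change of the list was -0.02. That median ran from -0.18 without CCR7loCD137hi replicate 1 to 0.11 without CCR7hiCD137lo replicate 1, and it was -0.08 after rescaling without short RNA genes. Nsun2, a tRNA cytosine methyltransferase, stood at 61.7 and 49.5 FPKM in CCR7hiCD137lo against 72.3 and 52.3 FPKM in CCR7loCD137hi. Pop5, a subunit of the ribonuclease that trims the 5′ end of tRNA, stood at 46.4 and 35.9 FPKM against 45.8 and 30.6 FPKM. In both genes the library numbered 2 was the lower one of each population. Xpot, the exporter of tRNA from the nucleus, chosen after its values were seen, stood at 11.6 and 11.2 FPKM against 13.1 and 13.1 FPKM, with a log2 fold change of 0.18 and no overlap.

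Of 20 genes of RNA polymerase III, which transcribes tRNA genes, and its factors, 8 had a difference above 0, against 47.9% of all genes. The median was -0.06, and 1 stood above and 5 below in both CCR7loCD137hi libraries, against 16.6% and 21.5% of all genes. Gtf3a, a factor for 5S ribosomal RNA genes, stood at 29.6 and 31.9 FPKM against 37.1 and 29.9 FPKM, and the subunit gene Polr3c at 28.3 and 30.0 FPKM against 32.0 and 34.0 FPKM. limma called 0 genes of both lists, with 0 at an unadjusted p under 0.05.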
